A study of Mus musculus with 14 samples.

Results

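The endoplasmic reticulum (ER) chaperones and targets of the unfolded protein response were examined in the hearts of mice with a complex I deficiency. The genes were taken as a list that had to be present in both count tables: Hspa5, Hsp90b1, Calr, Pdia4, Pdia6, Dnajb9, Xbp1, Herpud1, Sdf2l1 and Manf. All 10 were found among the 42396 genes listed, and all 10 passed the filter on low counts (above 1 CPM, the counts scaled to a common library size, in at least 1 library) in both experiments. The whole hearts of 14 female mice had been sequenced as bulk RNA in a knockout and an AAV experiment, in which the question was how loss of the transcription factor Atf3 alters the diseased heart. Every animal was FS6KD, a gene-trap knockdown of the complex I subunit gene Ndufs6, on a mixed C57BL/6J and 129/Ola background.

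The knockout experiment compared 4 hearts labelled Atf3+/+FS6KD with 4 labelled Atf3-/-FS6KD, all at 12 weeks. The Atf3 allele was a CRISPR-Cas9 deletion spanning exons 2 to 4, made in fertilized eggs, and founders were intercrossed, so the deletion was not limited to 1 cell type. The AAV experiment compared 3 hearts given MyoAAV2-shCtrl with 3 given MyoAAV2-shAtf3, a muscle-directed adeno-associated virus that carries a control hairpin RNA or one against Atf3. The virus was given to neonatal mice. The labels give 12 weeks for these hearts, which was read as 12 weeks after injection, and non-muscle cells of the heart were not the intended target.

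Atf3 itself was not lower in the libraries labelled as lacking it. Atf3 was at 25.7, 6.89, 6.90 and 6.35 CPM in the libraries labelled Atf3+/+FS6KD and at 25.5, 37.6, 22.7 and 14.3 CPM in those labelled Atf3-/-FS6KD (log2 fold change 1.14, adjusted p = 0.480). A count per gene does not tell which exons the reads came from. In the AAV experiment Atf3 was at 10.1, 13.2 and 14.1 CPM in the libraries labelled shCtrl and at 21.2, 12.1 and 16.5 CPM in those labelled shAtf3 (log2 fold change 0.41, adjusted p = 0.420). The columns of the AAV table also bear names that are the reverse of the labels. The labels were followed here, groups are called by them, and every direction given is conditional on them. Ndufs6 lay between 2.33 and 3.79 CPM in all 14 libraries. Total counts were 33914931 to 134920825 in the knockout experiment, where replicates 3 and 4 of both genotypes were the deeper ones, and 30085432 to 40534913 in the AAV experiment. Markers of cardiomyocytes were abundant in every library, with 8 genes summing to 51624 to 75623 CPM.

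The unfolded protein response matches the folding capacity of the ER to the load of proteins that enter it. Sensors in the ER membrane, Ire1 (gene Ern1), Perk (Eif2ak3) and Atf6, are held inactive by the chaperone BiP, the product of Hspa5, and are released when unfolded proteins occupy it. Ire1 then splices the Xbp1 mRNA, Atf6 is cleaved to a transcription factor, and Perk slows translation while favouring that of Atf4. Spliced Xbp1 and cleaved Atf6 act with the CCAAT-binding factor NF-Y on ER stress response elements in the promoters of chaperone genes. A count per gene does not separate spliced from unspliced Xbp1 mRNA, so the activity of that arm was not measured.

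The promoters of several members hold these elements, which are shown here because the pathway is known to act through them. Windows of 300 bases around the RefSeq start of each gene (250 before and 50 after, GRCm38.p6) were found for 9 of the 10 genes, all but Manf. The ER stress response element (ERSE), CCAAT and CCACG separated by 9 bases, was searched on both strands as an exact match. It was present in 4 of 9 windows, those of Hspa5, Hsp90b1, Calr and Pdia6, against 0.119% of all 32851 windows. The 5 copies follow, read in the direction of the element, with the CCAAT and CCACG boxes in capitals.
Hspa5, 65 bases upstream of the start, chr2:34772025-34772043: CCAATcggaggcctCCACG
Hsp90b1, 212 bases upstream, chr10:86705638-86705656: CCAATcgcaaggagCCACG
Hsp90b1, 107 bases upstream on the opposite strand, chr10:86705533-86705551: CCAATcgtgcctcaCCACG
Calr, 162 bases upstream on the opposite strand, chr8:84847075-84847093: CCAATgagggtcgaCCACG
Pdia6, 98 bases upstream, chr12:17266491-17266509: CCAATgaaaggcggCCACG

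Elements with a changed base in a box were not counted, and the window of Herpud1 held no exact match to the ERSE. It held the shorter ERSE-II, ATTGG and CCACG separated by 1 base, which was present in 1 of 9 windows against 0.0365% of all windows.
Herpud1, 52 bases upstream, chr8:94386377-94386387: ATTGGgCCACG
The CARE motif TGATGNAA, of the type bound by Atf4 dimers with C/EBP proteins, was likewise found in the Herpud1 window alone among the 9, 112 bases upstream on the opposite strand, against 3.97% of all windows. The UPRE core TGACGTGG and the CRE TGACGTCA were in 0 of 9 windows, against 0.676% and 1.79% of all windows. The CCACG box by itself, which also counts the copies inside ERSE and ERSE-II, was in 8 of 9 windows, all but that of Xbp1, against 32.8% of all windows. A match of letters is not a measured binding site.

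The whole windows of Hspa5 and Herpud1 are given for comparison, since Herpud1 ranked last of the members in likeness to Hspa5 over the libraries, as described further down. A link between promoter elements and that likeness was not tested. Both windows are on the plus strand, at chr2:34771840-34772139 and chr8:94386179-94386478, with the ERSE or ERSE-II boxes in capitals.
Hspa5: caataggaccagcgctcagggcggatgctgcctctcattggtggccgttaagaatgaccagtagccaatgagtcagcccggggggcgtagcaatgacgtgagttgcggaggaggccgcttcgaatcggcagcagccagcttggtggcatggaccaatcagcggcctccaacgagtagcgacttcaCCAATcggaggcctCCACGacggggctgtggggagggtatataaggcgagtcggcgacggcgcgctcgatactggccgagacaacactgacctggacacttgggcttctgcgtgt
Herpud1: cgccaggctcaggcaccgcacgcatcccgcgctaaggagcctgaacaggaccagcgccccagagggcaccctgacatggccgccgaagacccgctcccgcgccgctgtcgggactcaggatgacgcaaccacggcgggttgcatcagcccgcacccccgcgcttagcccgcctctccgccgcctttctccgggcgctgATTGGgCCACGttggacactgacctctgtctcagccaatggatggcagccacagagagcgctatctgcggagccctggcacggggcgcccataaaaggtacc

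The levels of the members differed widely. Compared per exon length (RPKM, the CPM divided by the exon length in kilobases, with the exon union of GENCODE on GRCm38), Hspa5 had the highest median over the 14 libraries, 107 RPKM with a range of 87.3 to 121. Calr (82.6 RPKM, 75.7 to 96.2), a lectin chaperone that binds calcium, Herpud1 (81.1 RPKM, 65.9 to 115) and Hsp90b1 (76.7 RPKM, 67.7 to 82.5), the Hsp90 of the ER, came next. The ranges of Calr, Herpud1 and Hsp90b1 overlapped one another, and those of Calr and Herpud1 overlapped that of Hspa5. A lower tier was formed by Pdia6 (21.5 RPKM, 18.8 to 25.5), Dnajb9 (19.4 RPKM, 18.0 to 20.7) and Xbp1 (19.0 RPKM, 16.3 to 21.6), with overlapping ranges. Pdia4 (11.7 RPKM, 9.99 to 14.1), Manf (6.49 RPKM, 5.27 to 8.04) and Sdf2l1 (3.36 RPKM, 2.62 to 4.35) each lay below the preceding gene without overlap. The members together took 0.130% to 0.158% of the counts of a library. Hsp90b1 shares 632 exon bases with overlapping genes, Manf 326, Pdia6 50, and Pdia4 and Dnajb9 14 each with a microRNA gene, and whether counting was strand-specific is not given in the sources used here, so these genes may include reads of their neighbours.

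**Figure D1:**
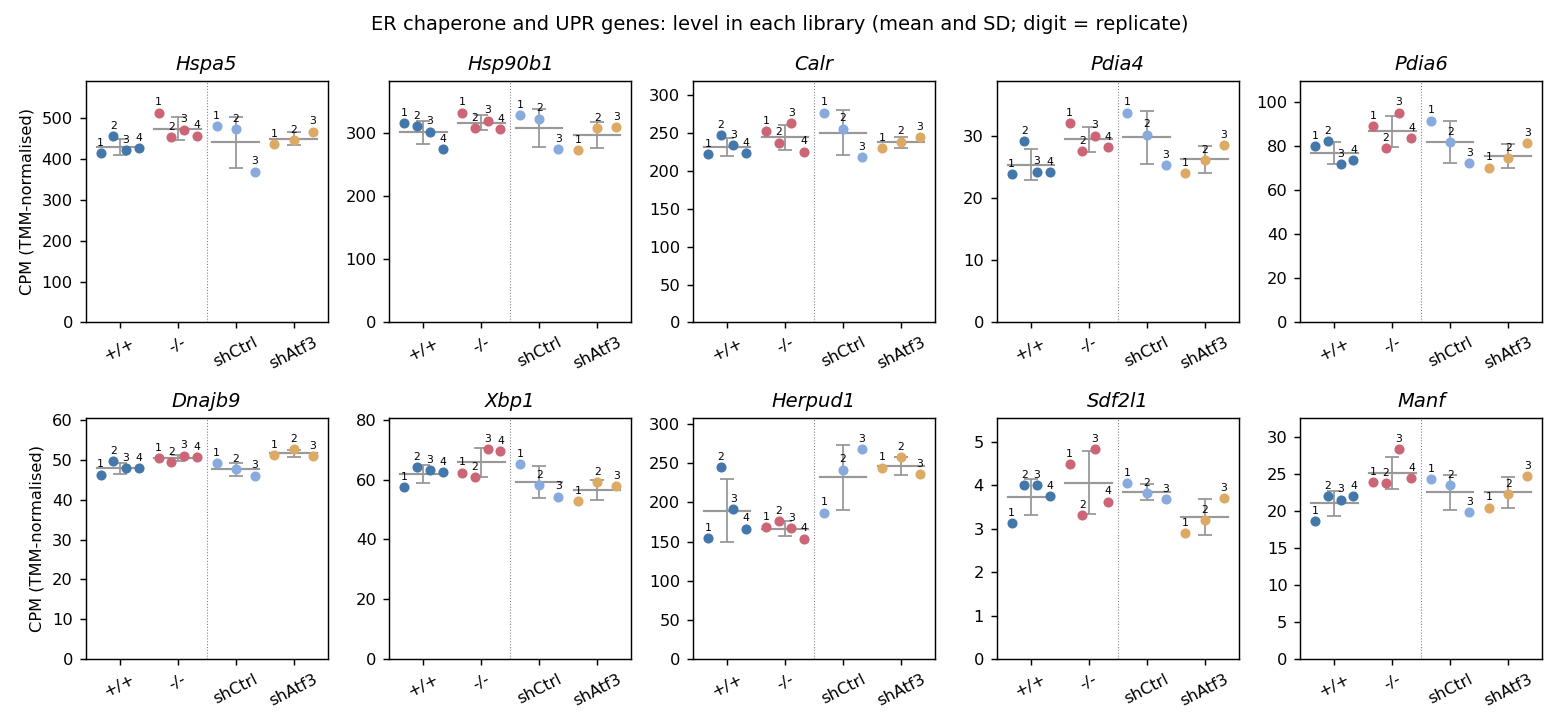
TMM-normalised CPM (y axis, linear) of each of the 10 genes in every library, by group as labelled. Digits mark replicates and grey bars the mean ± SD (n = 4, 4, 3 and 3). Groups overlap in most panels, and the exceptions are Manf in the knockout experiment (18.6 to 22.0 against 23.7 to 28.3 CPM) and Dnajb9 in the AAV experiment (46.0 to 49.1 against 50.9 to 52.6 CPM).

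Between the knockout groups, 9 of the 10 genes had a mean level above that of the labelled Atf3+/+FS6KD hearts and Herpud1 had one below it. The differences were small, and none passed the test. The log2 fold change was between 0.07 and 0.26 for the 9 genes and the median over all 10 was 0.11, beside 0.0005 over all 15592 genes tested, of which 50.2% had a fold change above 0. With edgeR's quasi-likelihood test, 0 of 10 members were called at an adjusted p below 0.05, where 0 of all genes (0%) were called. At an unadjusted p below 0.05, 4 of 10 members passed, all higher, beside 5.41% of all genes that passed in that direction and 10.1% in either. In 1 of 10 members the groups did not overlap, beside 5.71% of all genes.

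Hspa5, the central chaperone of the ER and the brake on the stress sensors, was at 414, 456, 420 and 426 CPM in the hearts labelled Atf3+/+FS6KD and at 513, 452, 471 and 457 CPM in those labelled Atf3-/-FS6KD. Replicate 1 of the latter was the highest of all 14 libraries, and replicate 2 of both groups lay within a few CPM of each other, so the groups overlapped. The means were 429 ± 18.7 and 473 ± 27.7 CPM (SD, n = 4 each), and the log2 fold change was 0.14 with an SE of 0.06 (adjusted p = 0.473). The unadjusted 95% interval of the difference ran from 0.49% to 21.2% higher.

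Manf, a secreted protein that is retained in the ER by binding BiP, was at 18.6, 22.0, 21.5 and 22.0 CPM in the labelled Atf3+/+FS6KD hearts and at 23.9, 23.7, 28.3 and 24.4 CPM in the labelled Atf3-/-FS6KD hearts. Here all 4 knockout-labelled libraries were above all 4 of the other group. Manf had the largest fold change of the members (log2 fold change 0.26 ± 0.08, adjusted p = 0.392), with an unadjusted 95% interval of 4.91% to 36.0% higher. Dixon's test marked an outlying library in each group, the low replicate 1 labelled Atf3+/+FS6KD and the high replicate 3 labelled Atf3-/-FS6KD.

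The disulfide isomerases of the list, which form and rearrange disulfide bonds in folding proteins, were the remaining members at an unadjusted p below 0.05. Pdia4 was at 24.0, 29.3, 24.3 and 24.2 CPM in the labelled Atf3+/+FS6KD hearts and at 32.1, 27.7, 30.1 and 28.2 CPM in the labelled Atf3-/-FS6KD hearts. One library made the groups overlap, replicate 2 labelled Atf3+/+FS6KD, which lay apart from the 3 others of its group. The log2 fold change was 0.22 ± 0.08 (SE, adjusted p = 0.436). Pdia6 was at 80.0, 82.3, 72.1 and 73.7 CPM against 79.3 to 95.4 CPM, with replicates 1 and 2 of the first group inside the range of the second (log2 fold change 0.18 ± 0.07, adjusted p = 0.471).

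Of the remaining members, Hsp90b1, Calr, Dnajb9, Xbp1 and Sdf2l1 were higher by value and were not at an unadjusted p below 0.05. The means of Hsp90b1 were 301 ± 18.7 and 317 ± 12.3 CPM and those of Calr 232 ± 11.7 and 244 ± 16.4 CPM. Dnajb9, a J-domain cochaperone of BiP also known as ERdj4, was at 47.9 ± 1.36 and 50.4 ± 0.704 CPM, the tightest of the 10 genes, with a coefficient of variation of 2.83% and 1.40%. Xbp1, the transcription factor downstream of Ire1, was at 61.8 ± 3.00 and 65.7 ± 4.85 CPM. Sdf2l1, a further cochaperone of BiP, was at 3.72 ± 0.41 and 4.06 ± 0.716 CPM and rested on 126 to 567 counts a library. Adjusted p over these 5 genes lay between 0.618 and 0.798. Over all 10 members the unadjusted 95% intervals of the change reached from -28.3% (Herpud1) to 37.7% (Sdf2l1). A decrease of that order in Herpud1 or an increase of that order in Sdf2l1 is not excluded by these libraries. Other intervals were narrower, such as -2.25% to 13.3% for Dnajb9 and -4.40% to 15.7% for Hsp90b1.

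Herpud1, an ER membrane protein of the degradation machinery (ER-associated degradation, ERAD), went the other way and had the widest range over the 14 libraries, 1.74-fold from lowest to highest. It was at 154, 245, 191 and 166 CPM in the labelled Atf3+/+FS6KD hearts and at 169, 176, 167 and 154 CPM in the labelled Atf3-/-FS6KD hearts. Replicates 2 and 3 of the first group were above every library of the second, and the lowest values of the groups were alike. The mean was 189 ± 40.1 against 166 ± 9.40 CPM (log2 fold change -0.18 ± 0.13, adjusted p = 0.654), and the coefficient of variation was 21.2% in the first group and 5.64% in the second. Without replicate 2 labelled Atf3+/+FS6KD the log2 fold change was -0.037.

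**Figure D2:**
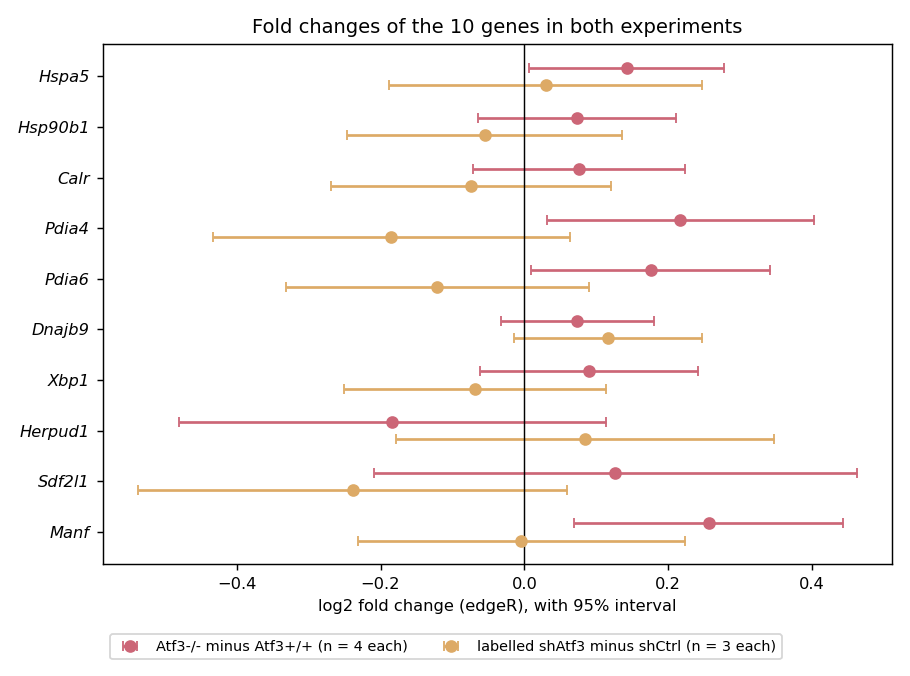
log2 fold change (x axis) of each gene with its unadjusted 95% interval from edgeR, for labelled Atf3-/- against Atf3+/+ (n = 4 each) and labelled shAtf3 against shCtrl (n = 3 each). In the knockout experiment 9 of 10 points lie above 0 and in the AAV experiment 7 of 10 lie below 0, and no member passed the adjusted test in either.

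With the AAV vectors, 7 of the 10 genes had a lower mean in the hearts labelled shAtf3 than in those labelled shCtrl, beside 50.9% of the 15225 genes tested. Dnajb9, Herpud1 and Hspa5 had a higher one, the last of which turned to -0.01 under scaling to total counts without TMM. The median log2 fold change was -0.06, beside -0.003 over all genes. No member was called (0 of 10), while 82 genes or 0.539% were called overall. At an unadjusted p below 0.05 the count was again 0 of 10, where 12.7% of all genes passed. The groups did not overlap for 1 of 10 members, beside 18.4% of all genes.

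That member was Dnajb9, at 49.1, 47.6 and 46.0 CPM in the libraries labelled shCtrl and 51.2, 52.6 and 50.9 CPM in those labelled shAtf3. Each library of the second group was above each of the first by a narrow margin. The log2 fold change was 0.12 ± 0.06 (SE, adjusted p = 0.445), the greatest upward value of the members here.

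Hspa5 was at 480, 472 and 369 CPM in the labelled shCtrl hearts and at 435, 446 and 466 CPM in the labelled shAtf3 hearts. The first group enclosed the second, because its replicate 3 was the lowest of all 14 libraries. Means of 440 ± 61.8 and 449 ± 15.9 CPM corresponded to a log2 fold change of 0.03 with an SE of 0.10 (adjusted p = 0.934). Without labelled shCtrl replicate 3 it was -0.08.

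Both isomerases were lower in the labelled shAtf3 libraries by value but not by test. Pdia4 was at 33.9, 30.3 and 25.4 CPM against 24.1, 26.1 and 28.6 CPM (log2 fold change -0.18 ± 0.11, adjusted p = 0.530). Pdia6 was at 91.7, 82.1 and 72.4 CPM against 70.4, 74.8 and 81.3 CPM (log2 fold change -0.12 ± 0.09, adjusted p = 0.642). In both genes replicate 3 labelled shCtrl lay inside the range of the other group. Without it Pdia4 was at -0.29 and Pdia6 at -0.20, and without replicate 1 labelled shCtrl at -0.084 and -0.033. Without replicate 1 labelled shAtf3, Pdia4 was at -0.13 and Pdia6 at -0.073. Manf, which had stood out in the knockout experiment, was at 24.3, 23.4 and 19.9 CPM against 20.4, 22.3 and 24.7 CPM, with equal means of 22.5 CPM.

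Sdf2l1 had the largest downward value, with 4.05, 3.81 and 3.68 CPM against 2.90, 3.20 and 3.70 CPM (log2 fold change -0.24 ± 0.13, adjusted p = 0.493). It rested on 98 to 168 counts a library, and replicate 3 labelled shAtf3 overlapped the other group. With 1 library left out it ranged from -0.34 to -0.16, the last without replicate 1 labelled shAtf3. Hsp90b1 (329, 323 and 274 CPM against 273, 309 and 310 CPM), Calr (250 ± 29.9 and 238 ± 7.12 CPM) and Xbp1 (59.2 ± 5.47 and 56.5 ± 3.30 CPM) had log2 fold changes between -0.07 and -0.06 (adjusted p from 0.784 to 0.841). Herpud1 was at 187, 242 and 268 CPM against 244, 258 and 236 CPM, with replicate 1 labelled shCtrl far below the rest (log2 fold change 0.08 ± 0.12, adjusted p = 0.824). The 95% intervals reached from -31.1% to 27.2% over the 10 genes.

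In several libraries most members deviated in the same direction. In labelled shCtrl replicate 1, 8 of 10 members were above the mean of the experiment and 7 had their highest value of the 6 libraries. In labelled shCtrl replicate 3, 8 of 10 were below it and 4 had their lowest value. In labelled shAtf3 replicate 1, 8 of 10 were below it and 5 had their lowest value, and in labelled shAtf3 replicate 3, 9 of 10 were above it. The coefficient of variation was larger in the labelled shCtrl group for 9 of 10 members. Without replicate 3 labelled shCtrl the median of the members was -0.13, with 8 of 10 lower. In that setting 3 of 10 members were at an unadjusted p below 0.05, all lower, beside 15.1% of all genes in either direction. Without replicate 1 labelled shCtrl the median of the members was -0.001, with 5 higher and 5 lower. Without replicate 1 labelled shAtf3 it was -0.01, again with 5 and 5. No member was called in any of these settings.

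Among the knockout libraries, 7 of 10 members had their lowest value in replicate 1 labelled Atf3+/+FS6KD, and all 10 lay below the mean of the experiment in replicate 4 of that group. In replicate 3 labelled Atf3-/-FS6KD, 9 of 10 lay above it and 6 had their highest value. The count of 9 higher and 1 lower was unchanged without any single library, but the size was not. The median of the members was 0.066 without replicate 3 labelled Atf3-/-FS6KD and reached 0.14 without replicate 2 of that group, and without replicate 3 labelled Atf3-/-FS6KD Sdf2l1 was at 0.027, Calr at 0.039 and Xbp1 at 0.055. Sdf2l1 was at 0.055, Calr at 0.056 and Xbp1 at 0.056 without replicate 1 labelled Atf3+/+FS6KD, and Hsp90b1 was at 0.030 without replicate 4 labelled Atf3+/+FS6KD and at 0.048 without replicate 1 labelled Atf3-/-FS6KD. The range of 0.07 to 0.26 over the 9 genes holds for all libraries together. Within replicates 1 and 2 alone the median of the members was 0.06 and within the deeper replicates 3 and 4 alone 0.13, with 9 higher and 1 lower in both. The count at an unadjusted p below 0.05 was less stable. It was 1 of 10 without replicate 3 or 4 labelled Atf3+/+FS6KD, beside 11% and 8.71% of all genes. It was also 1 of 10 without replicate 1 or 3 labelled Atf3-/-FS6KD, beside 10.4% and 7.12% of all genes. Without replicate 1 labelled Atf3+/+FS6KD it was 2 of 10, beside 10% of all genes.

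**Figure D3:**
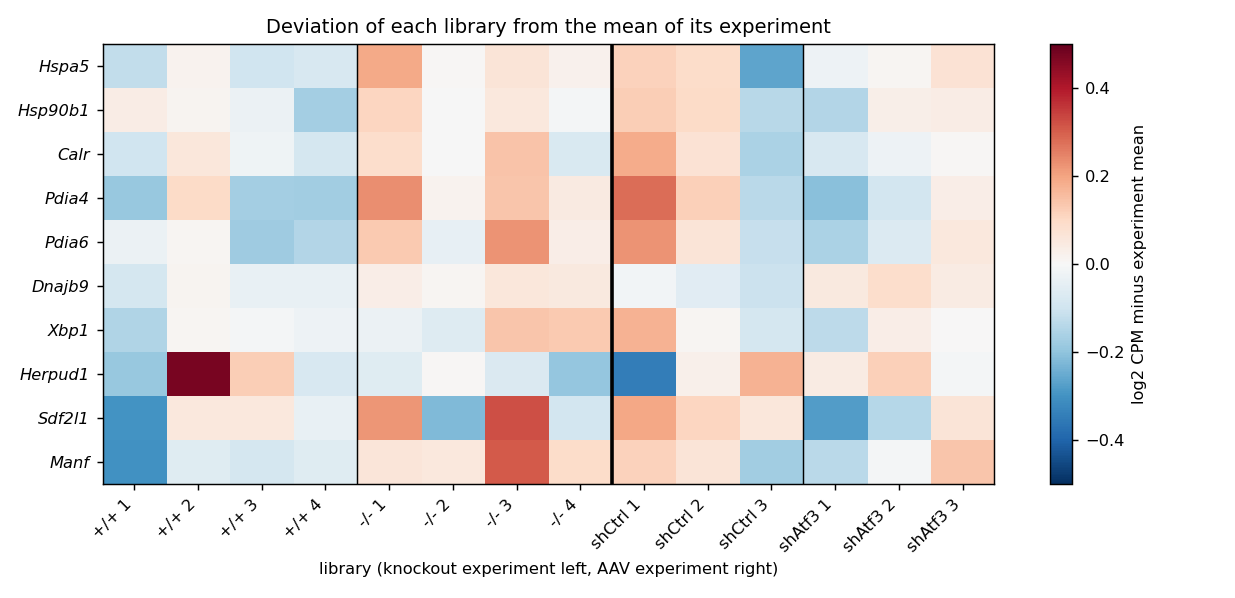
Deviation of log2 CPM from the mean of the experiment (colour) for each gene and library. In some libraries most genes share a sign, with 9 of 10 below 0 in Atf3+/+ replicate 1 and 9 of 10 above 0 in Atf3-/- replicate 3, and in others they are split, with 5 above and 5 below in Atf3-/- replicate 2 and shAtf3 replicate 2.

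**Figure D4:**
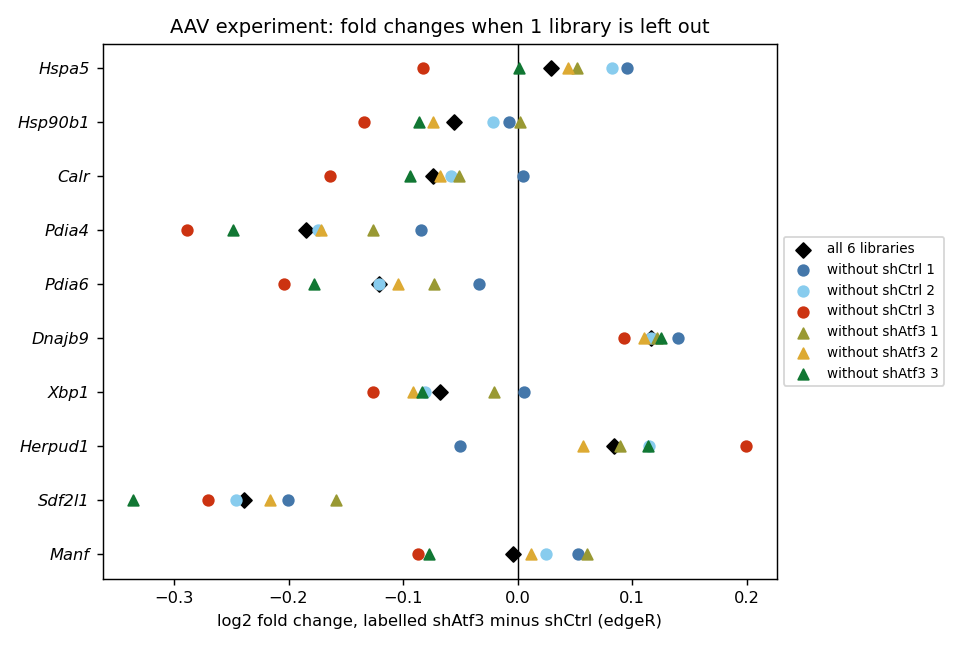
edgeR log2 fold change (x axis) of each of the 10 genes in the AAV experiment, labelled shAtf3 minus shCtrl, with all 6 libraries (diamonds) and without each library in turn (circles, a labelled shCtrl library left out, and triangles, a labelled shAtf3 library left out). Without labelled shCtrl replicate 3 Hspa5 lies at -0.08 and Herpud1 at 0.20, and without labelled shCtrl replicate 1 at 0.10 and -0.05.

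Herpud1, singled out here after its values were seen, often differed in sign from the other members. Its deviation from the mean of the experiment had the opposite sign to the median deviation of the other 9 genes in 10 of 14 libraries and the same sign in 4. Some of these deviations were near 0, such as 0.0041 for Herpud1 against -0.0032 in replicate 2 labelled Atf3-/-FS6KD, and in replicates 1 and 2 labelled Atf3+/+FS6KD Herpud1 (-0.19 and 0.48) had the sign of the others (-0.12 and 0.014). In labelled shCtrl replicate 1, where the other genes were high (median deviation 0.17 in log2 CPM), Herpud1 was at -0.35. In labelled shCtrl replicate 3, where they were low (-0.13), it was at 0.17. The ratio of Hspa5 to Herpud1 counts in the labelled shCtrl libraries was 2.57, 1.95 and 1.38, and in the labelled shAtf3 libraries 1.78, 1.73 and 1.98. In the knockout experiment it was 2.68, 1.86, 2.20 and 2.56 in the labelled Atf3+/+FS6KD hearts and 3.05, 2.56, 2.82 and 2.97 in the labelled Atf3-/-FS6KD hearts. The ratio thus overlapped between groups in both experiments, and no ratio was below 1.

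The genes whose profile was most like that of Hspa5 were ranked by the root mean square difference of log2 CPM, centred within each experiment, over the 14 libraries and 15109 genes. Among the 5 closest were Rabepk (0.04), Ganab (0.04), Rpia (0.06) and Adgre5 (0.06). Ganab encodes the catalytic subunit of ER glucosidase II, which trims the glycans of folding glycoproteins, and Rabepk lies next to Hspa5 on the opposite strand, with their annotated 3' ends adjoining, so reads past either end cannot be assigned with certainty. Among the members, Calr ranked 9 and Hsp90b1 28, whereas Dnajb9 ranked 139, Pdia6 159, Pdia4 263, Xbp1 490, Manf 558, Sdf2l1 6553 and Herpud1 11212. The measure favours genes with little spread, and all points share the depth and makeup of their library.

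An interaction term in a fit of all 14 libraries asked whether the effects differed between the experiments. No member was called (0 of 10), beside 26 of 15708 genes or 0.166%, and 2 of 10 were at an unadjusted p below 0.05, beside 17% of all genes. These were Pdia4, with a knockout minus AAV difference of 0.40 ± 0.14 in log2 fold change (adjusted p = 0.179), and Pdia6, with 0.29 ± 0.12 (adjusted p = 0.246). For Manf the difference was 0.26 ± 0.14 (adjusted p = 0.359) and for Herpud1 -0.27 ± 0.20 (adjusted p = 0.532). These values rest on the AAV labels. With the AAV groups turned, as the column names read (an alternative added after seeing the data), 0 of 10 members and 0 of all genes were called, and 1 of 10 was at an unadjusted p below 0.05, beside 4.09% of all genes. Pdia4 was then at 0.035 ± 0.14, Pdia6 at 0.056 ± 0.12 and Dnajb9, the member below that threshold, at 0.19 ± 0.06.

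Of the remaining genes of the pathway, 0 were called in any list in either experiment. Of 19 other ER chaperones and cochaperones, 15 had a log2 fold change above 0 in the knockout experiment (median 0.05) and 2 in the AAV experiment (median -0.07). By the lowest p, these were Cnpy4 (0.26), Hyou1 (0.18), an Hsp110-type nucleotide exchange factor of BiP, and Ppib (0.18), a prolyl isomerase, in the first (adjusted p = 0.454, 0.477 and 0.497). With the AAV vectors they were Fkbp14 (-0.25), Cnpy2 (-0.16) and Dnajc10 (-0.12), a disulfide reductase that works with BiP (adjusted p = 0.363, 0.399 and 0.407).

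Of 12 further disulfide isomerases and ER oxidases, 11 were above 0 in the knockout experiment (median 0.11) and 4 in the AAV experiment (median -0.08). Leading the first were Ero1a (0.20), the oxidase that recharges the isomerases, Prdx4 (0.16) and Pdia3 (0.13), with adjusted p of 0.471 to 0.603. Between the AAV groups Pdia5 (-0.36), Txndc5 (-0.24) and P4hb (-0.16), the main isomerase and a subunit of collagen prolyl hydroxylase, were lower with no overlap between groups, and Txndc11 (0.11, adjusted p = 0.577), named after its values were seen, was higher with none, which makes 4 of 12 genes beside the 18.4% of all genes. P4hb was at 263 ± 7.78 CPM in the libraries labelled shCtrl and 236 ± 8.16 CPM in those labelled shAtf3 (SD, n = 3 each, adjusted p = 0.289).

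Among 13 sensors and transcription factors, 12 were above 0 in the knockout experiment (median 0.07) and 6 in the AAV experiment (median -0.01). Nfya (0.21) and Nfyb (0.16), subunits of NF-Y, and Creb3l1 (0.54), an Atf6-like factor of matrix-secreting cells, had the lowest p in the first (adjusted p = 0.425, 0.529 and 0.505). Creb3l2 (-0.20), Creb3l1 (-0.45) and Nfyc (0.15) did so in the second (adjusted p = 0.289, 0.372 and 0.399). Of 20 genes of ERAD, 19 passed the filter, with 8 of 19 above 0 in each experiment. In the knockout experiment 2 of 19 were at an unadjusted p below 0.05, both lower, beside 10.1% of all genes in either direction. The median of the ERAD list was -0.03. Its summed level was 1672 to 1779 CPM in the labelled Atf3+/+FS6KD hearts and 1602 to 1662 CPM in the labelled Atf3-/-FS6KD hearts, without overlap. Vcp had the largest part in that sum (575 and 531 CPM on average). The summed sensors and transcription factors did not overlap either and were higher (579 to 595 against 602 to 635 CPM). Fam8a1, a factor of the Hrd1 ligase complex, was at 53.8 ± 3.92 CPM against 45.8 ± 1.45 CPM in the labelled Atf3-/-FS6KD hearts with no overlap (log2 fold change -0.23, adjusted p = 0.334), and at 52.5 ± 2.05 against 58.1 ± 2.64 CPM in the AAV experiment, also with no overlap (0.15, adjusted p = 0.379). Erlec1 (-0.23) and Vcp (-0.11) followed in the knockout experiment (adjusted p = 0.437 and 0.534), and Os9 (-0.14) and Edem2 (-0.14) were named in the AAV experiment (adjusted p = 0.370 and 0.615).

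The translocon and signal peptide processing list (16 genes) had medians of 0.03 and 0.002. Sec61a1, the pore of the translocon, had a log2 fold change of 0.17 in the knockout experiment, with no overlap (adjusted p = 0.414), and -0.13 in the AAV experiment (adjusted p = 0.590). Spcs3 (0.15) and Ssr2 (0.12) were next in the first and Ssr3 (0.10) and Sec61g (0.08) in the second. Of 11 targets of the Perk and Atf4 arm, 7 were above 0 in the knockout experiment, led by Slc7a11 (0.33), the cystine transporter, and Trib3 (0.59), a pseudokinase (adjusted p = 0.404 and 0.441), with Cebpb at -0.41. Of these 11, 7 were below 0 in the AAV experiment. Nupr1 was at 8.69 ± 2.16 against 4.96 ± 0.489 CPM with no overlap (-0.81, adjusted p = 0.121), and Trib3 (-0.79) and Chac1 (-0.61), which degrades glutathione, followed (adjusted p = 0.259 and 0.451).

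Chaperones of other compartments were listed for comparison. Of 12 cytosolic heat shock chaperones, 10 were below 0 in the knockout experiment (median -0.17) and 12 above 0 in the AAV experiment (median 0.17), and of 10 mitochondrial chaperones and proteases 9 were below 0 (median -0.10) and 9 above 0 (median 0.14). None of them passed the adjusted test. In the AAV experiment 6 of the 10 mitochondrial genes did not overlap, beside 18.4% of all genes. There 5 of 10 were at an unadjusted p below 0.05, beside 12.7%. The counts in the knockout experiment were 1 and 0 of 10, beside 5.71% and 10.1%. Their sums did not overlap, at 3213 to 3297 against 2806 to 3198 CPM in the knockout and 3054 to 3412 against 3609 to 3705 CPM in the AAV experiment. Hspa1a (-0.96) and Hspa1b (-0.77), the inducible Hsp70 genes, did not overlap between the groups of the knockout experiment (adjusted p = 0.277 and 0.299). They are near-identical copies at 1.47 to 3.25 CPM on average, so the split of reads between them is uncertain. Hsp90ab1 was at -0.17. Leading the AAV experiment were Cryab (0.19), a small heat shock protein, Dnajb1 (0.57) and Hspa1b (1.14), with adjusted p of 0.202 to 0.314. Hspe1 (0.26), Hspa9 (0.19) and Dnaja3 (0.19) led the mitochondrial list there (adjusted p = 0.229 to 0.247), and Dnaja3 (-0.11), Hspd1 (-0.14) and Hspa9 (-0.10) in the knockout experiment.

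**Figure D5:**
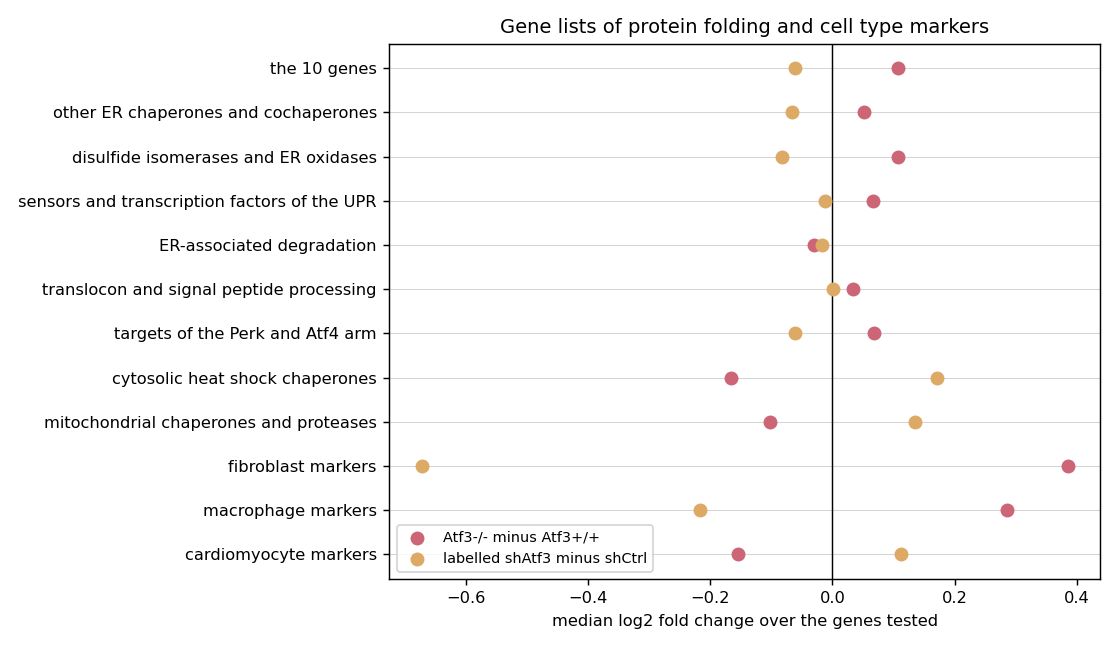
Median log2 fold change (x axis) over the tested genes of each list of folding genes or cell type markers, 1 point for the knockout experiment (labelled Atf3-/- minus Atf3+/+) and 1 for the AAV experiment (labelled shAtf3 minus shCtrl). The medians of other ER chaperones lie at 0.05 and -0.07, those of cytosolic heat shock chaperones at -0.17 and 0.17, and those of fibroblast markers at 0.39 and -0.67.

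Markers of fibroblasts, macrophages and plasma cells had the signs of the ER chaperone and isomerase lists in both experiments, none of them called in the knockout experiment, while those of cardiomyocytes and erythrocytes had the opposite signs. Summed over 8 genes, fibroblast markers were at 1694 to 2036 CPM in the labelled Atf3+/+FS6KD hearts and 2012 to 2744 CPM in the labelled Atf3-/-FS6KD hearts, with 8 of 8 above 0 (median 0.39) and 0 called. In the AAV experiment they were at 2337 to 3201 CPM in the labelled shCtrl hearts and 1740 to 1825 CPM in the labelled shAtf3 hearts, with 8 of 8 below 0 (median -0.67) and 4 called. The 4 called genes, named for that call after their values were seen, were Col1a1 (-0.84), Col1a2 (-0.82), Col3a1 (-1.05), which encode collagen chains, and Postn (-1.14), at adjusted p of 0.0293 to 0.0328 with edgeR. By library, the fibroblast sums were 1750, 1694, 2036 and 1830 CPM in the labelled Atf3+/+FS6KD hearts, with 1, 9, 2 and 0 of the 10 ER genes above the mean of the experiment, and 2247, 2679, 2744 and 2012 CPM in the labelled Atf3-/-FS6KD hearts, with 8, 5, 9 and 6 above. They were 3201, 2870 and 2337 CPM in the labelled shCtrl hearts, with 8, 9 and 2 above, and 1753, 1825 and 1740 CPM in the labelled shAtf3 hearts, with 2, 5 and 9 above.

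Macrophage markers (8 genes) were at 313 to 384 against 346 to 499 CPM in the knockout experiment (8 of 8 above 0) and at 457 to 528 against 405 to 464 CPM in the AAV experiment (8 of 8 below 0). For plasma cells, which carry large amounts of ER chaperones, 5 of 8 markers passed the filter. Their list summed to 22.9 to 31.1 against 30.5 to 34.3 CPM in the knockout experiment (5 of 5 above 0) and 25.0 to 30.2 against 20.2 to 22.5 CPM in the AAV experiment (5 of 5 below 0). Of these, Igkc and Mzb1 lay near the filter, at group means of 0.90 to 1.52 CPM. In the AAV experiment Prdm1 (-1.06) and Sdc1 (-0.38) had the largest values, beside Ighm (-0.21), Mzb1 (-0.17) and Igkc (-0.03). Of 6 T and B cell markers 1 passed the filter in the knockout experiment and 0 in the AAV experiment. Cardiomyocyte markers had 7 of 8 below 0 in the first (median -0.16) and 8 of 8 above 0 in the second (median 0.11). Endothelial markers had 6 of 6 and 5 of 6 above 0, erythrocyte markers 0 of 5 and 5 of 5, and of 5 atrial markers 2 passed the filter, with 1 of 2 and 0 of 2 above 0 (medians -0.02 and -0.70). The atrial list summed to 787 and 778 CPM in labelled shCtrl replicates 1 and 2, where 8 and 9 of the 10 ER genes were above the mean, and to 264 CPM in replicate 3, where 2 were, beside 255 to 338 CPM in the labelled shAtf3 hearts and 286 to 698 CPM in the knockout experiment. Nearly all of that sum was Nppa, at 607 ± 299 CPM in the labelled shCtrl and 291 ± 41.9 CPM in the labelled shAtf3 hearts. Myl4 was at 2.59 and 2.05 CPM. The paper names NPPA as a marker of heart failure, so the sum does not measure atrial tissue alone. The part of these markers in the values of the ER genes was not tested, and in whole hearts a change in the number of cells of a type cannot be told apart from a change in RNA per cell.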

How the data were processed

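Stranded mRNA libraries of 14 hearts had been made from RNA purified with a kit for fibrous tissue, and were sequenced single-end. Mapping was to GRCm38.p6 and counting by featureCounts 2.0.0, per the labels, and the aligner is not given in the sources used here. For every gene and library the authors deposited an estimated count that is not normalized, and 19.3% to 24.4% of values per library had decimals. The design had assumed whole counts. Values were rounded and the same tests kept. No deposited sample column was omitted.

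Each experiment was fitted on its own groups, without covariates, for genes exceeding 1 CPM in 1 library or more. The two-sided quasi-likelihood test of edgeR 4.0.16 (R 4.3.3) was used after TMM scaling, with p-values adjusted by Benjamini and Hochberg over all genes tested and a threshold of 0.05. The interaction was fitted on all 14 libraries. CPM are TMM-normalised. Log2 CPM used a prior count of 2. The statistical scripts were tested on simulated counts. Within groups, the chi-square per gene between libraries was 7.31 to 99.3, so no pair agreed within sampling noise. The labels do not state that hearts were processed independently, so p-values measure the spread between these libraries.

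The 10 members and the other lists were chosen with earlier results of these data known. Named from the other pathway lists, which exclude the cell type markers, were genes at an adjusted p below 0.05 and then those with the lowest p, up to 3 a list. Alternatives were another scaling, DESeq2 1.42.0, limma 3.58.1, other filters, a replicate block, depth, merged gene copies and leaving out each library. Coordinates came from GENCODE on GRCm38 and promoter windows from RefSeq on GRCm38.p6. Of the 5 genes ranked closest to Hspa5, 1 is not reported here.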

Additional observations from a re-analysis of the deposited data

Results flagged for a closer look

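In the knockout experiment, 3 of the 20 groups of 4 values examined (10 genes in each of the labelled genotypes) held a value that Dixon's test at the 95% level set apart from its neighbours, which chance gives in about 1 in 20 groups. Pdia4 was at 29.3 CPM in replicate 2 labelled Atf3+/+FS6KD, where the other 3 libraries were at 24.0 to 24.3 CPM. Manf was at 18.6 CPM in replicate 1 labelled Atf3+/+FS6KD, where the nearest of the others was at 21.5 CPM. Manf was at 28.3 CPM in replicate 3 labelled Atf3-/-FS6KD, where the others were at 23.7 to 24.4 CPM. Groups of 3 in the AAV experiment were not examined in this way.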

How the results depend on the processing

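No member was called at an adjusted p below 0.05 under any alternative in either experiment or in the interaction. In the knockout experiment all 190 values of single members under the alternatives kept their sign. For the AAV vectors 129 of 140 did and 11 changed sign, and in the interaction 167 of 170. The counts of called genes depended on the processing, and the cause was not tested. In the knockout experiment 0 genes were called with edgeR and 1575 were at an unadjusted p below 0.05, 208 were called with DESeq2, 0 with limma, 2 with no filter on low counts, 8 in replicates 3 and 4 alone and 0 to 15 with 1 library left out. The AAV count was 82 with edgeR, 308 with DESeq2, 304 with no filter and 1 to 285 with 1 library left out, the highest without replicate 3 labelled shCtrl. In the interaction it was 26, with 205 under library size alone, 61 with no filter and 0 to 168 with 1 library left out, the lowest without replicate 2 labelled shAtf3 and the highest without replicate 3 labelled Atf3+/+FS6KD.

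Scaling by library size alone moved the median log2 fold change of all genes to 0.06 in the knockout and -0.04 in the AAV experiment. Under it Hspa5 in the AAV experiment was at -0.011 and the interaction of Dnajb9 at 0.059, and the split of called AAV genes went from 13 higher and 69 lower to 7 and 88. With no filter, Manf in the AAV experiment was at 0.0038. With 1 library left out, the AAV log2 fold changes ranged from -0.083 to 0.095 for Hspa5, -0.134 to 0.0020 for Hsp90b1, -0.164 to 0.0051 for Calr, -0.126 to 0.0058 for Xbp1, -0.050 to 0.200 for Herpud1 and -0.087 to 0.061 for Manf. With the AAV groups turned, added after seeing the data, 0 genes were called in the interaction, and Dnajb9 was at 0.191 and Sdf2l1 at -0.110. Replicate numbers were not shown to pair the hearts: same-numbered libraries correlated between 0.01 and 0.14 in the knockout and between -0.0004 and 0.15 in the AAV experiment. With the replicate block, 0 genes were called in the knockout experiment and 20 in the AAV experiment. Under that block 2 members were at an unadjusted p below 0.05 in the knockout experiment, beside 12.7% of all genes.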
